A study of Mus musculus with 2 samples.

Results

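The genes described here are 10 genes of the polyamine pathway, chosen by symbol from the 24346 gene symbols measured in mouse heart tissue. They are Odc1, Amd1, Amd2, Srm, Sms, Sat1, Smox, Oaz1, Oaz2 and Azin1. They were picked because the deposited value of Amd1 alone is an extreme of these data, so the difference of Amd1 is a description and no test of it is given. RNA sequencing was done on 1 library from heart tissue treated with probucol, a cholesterol-lowering antioxidant drug, and on 1 library from untreated heart tissue. Both samples are labelled HFD-MI, which the series title lets be read as a myocardial infarction (MI) model, HFD being the usual short form of high-fat diet. Both carry the age label day 14, and the labels do not say what the days are counted from. The column headers of both deposited tables also carry the marks HypoE and CM, which the labels do not explain and which were not interpreted. No label gives strain, genotype, sex, the part of the heart taken, or whether a library is 1 animal or a pool. With 1 library a group, every statement below describes these libraries and no difference has a replicate check.

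Polyamines (putrescine, spermidine and spermine) are small charged molecules that bind nucleic acids and that growing cells need. Ornithine decarboxylase makes putrescine, and S-adenosylmethionine (AdoMet) decarboxylase supplies the aminopropyl group with which spermidine synthase and then spermine synthase extend it. Acetylation and oxidation reverse these steps, and antizymes hold the pathway down by binding ornithine decarboxylase and sending it to the proteasome. Polyamine synthesis is known to be raised in growing heart muscle and in activated macrophages.

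The values are FPKM, fragments per kilobase of transcript relative to all mapped fragments, so levels can be compared between genes. Each difference is log2((FPKM probucol + 0.5)/(FPKM untreated + 0.5)), and a gene was counted as higher or lower past 1.5-fold. Among the 12882 genes with a mean of at least 0.5 FPKM, the share past 1.5-fold lower with probucol was 12.0% and the share past 1.5-fold higher was 5.52%. All 10 polyamine genes passed this filter. The steps between low values put 1 FPKM, for 1 kb of effective transcript length, at 6.68 fragments with probucol and 7.46 without. Intervals given below are exact binomial 95% intervals (Clopper-Pearson) of the FPKM ratio from such estimated fragments, and they cover counting error only. The tissue label held against its markers: the heart muscle genes Myl2 and Myl3 were at 22203 and 11521 FPKM with probucol, against 14735 and 7841 FPKM in untreated tissue.

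Amd1 and Amd2 encode AdoMet decarboxylase and come first because the sequences decide how their values can be read. Amd1 (chromosome 10, 40287458 to 40302188, GRCm38, minus strand) has 8 exons. Amd2 (chromosome 10, 35708691 to 35711891, minus strand) has 1 exon, and its annotated transcript ends in a run of 17 A. A lack of introns and a run of A at the end are the usual marks of a retrocopy, a copy made from spliced messenger RNA. Aligned over 3201 bases, the transcripts are 99.7% identical, with 11 substitutions. A further 7 bases, all outside the coding sequence, are present in only 1 of the 2 transcripts and are left out of that identity. Of the substitutions, 1 lies before the coding sequence, 1 inside it and 9 after it. The coding sequences, 1005 bases each with the stop codon, differ only by G796C, the Amd1 base first, counted from 1 at the first coding base. The stretches around that base are shown because it is the one place in the coding sequence where a fragment can be assigned, with the differing base in capitals (GENCODE M21 transcripts, positions 1094 to 1154 of Amd1 and 1099 to 1159 of Amd2).
Amd1: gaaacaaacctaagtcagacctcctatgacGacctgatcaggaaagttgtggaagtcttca
Amd2: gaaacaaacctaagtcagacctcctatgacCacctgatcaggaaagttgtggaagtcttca

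The start regions show where the likeness begins. The RefSeq windows below (GRCm38.p6, minus strand, chr10:40302159-40302438 for Amd1 and chr10:35711862-35712141 for Amd2) hold 250 bases before and 30 bases after each annotated start. Capitals mark the printed part of a run of 48 identical bases. It begins at base 3 from the annotated RefSeq start of Amd1 and at base 1 from that of Amd2. The count of 48 stops where the searched Amd1 window of 300 bases ends, so the likeness can go on beyond it. The aligned GENCODE transcripts, whose positions are counted from their own annotated starts, first differ at base 165 of Amd1.
Amd1: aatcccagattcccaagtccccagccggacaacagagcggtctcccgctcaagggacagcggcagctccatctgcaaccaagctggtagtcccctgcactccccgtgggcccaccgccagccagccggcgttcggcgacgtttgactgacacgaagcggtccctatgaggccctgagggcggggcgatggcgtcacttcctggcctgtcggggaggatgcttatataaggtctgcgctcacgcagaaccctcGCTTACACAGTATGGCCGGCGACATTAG
Amd2: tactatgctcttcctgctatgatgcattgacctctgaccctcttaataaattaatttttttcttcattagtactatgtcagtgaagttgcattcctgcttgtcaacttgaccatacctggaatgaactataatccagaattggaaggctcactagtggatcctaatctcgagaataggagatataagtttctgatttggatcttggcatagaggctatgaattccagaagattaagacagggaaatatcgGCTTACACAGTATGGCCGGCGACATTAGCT
Before that run the windows are unlike each other. Motifs were searched in the full RefSeq windows of 300 bases, 250 before and 50 after the start, of which the printed windows leave out the last 20. The full Amd1 window holds 1 match to GGGCGG, a GC box read on both strands, and the full Amd2 window holds none, while 35.7% of all 32851 such windows hold this motif. The exact letters TATAAA, a common form of the TATA box, were found in neither, and in 13.6% of all such windows. Similar letters were not searched, such as tatataag, which the printed Amd1 window holds shortly before the start. Absence of TATAAA therefore does not mean that a window lacks a TATA box.

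**Figure D1:**
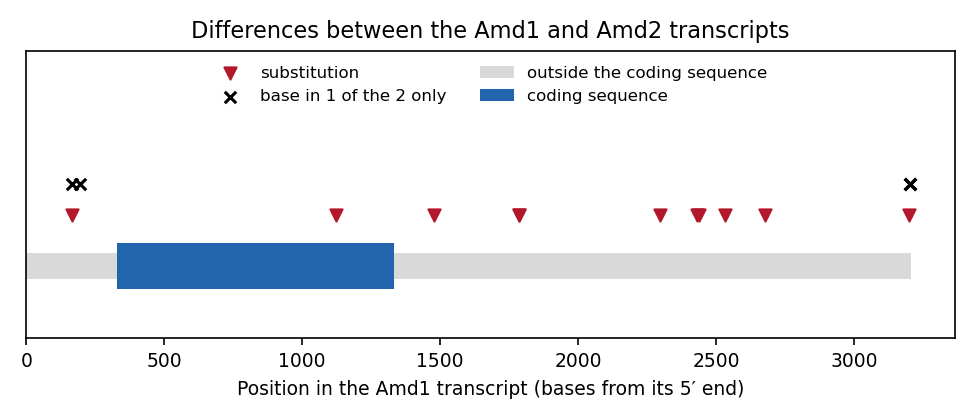
Map of the Amd1 transcript, drawn to scale in bases from its 5′ end, with the coding sequence as a blue block and its differences from the Amd2 transcript as marks. The 11 substitutions are sparse, and 1 of them falls in the coding sequence.

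In the deposited values Amd1 had 0.0708 FPKM in the probucol library, against 19.7 FPKM in the untreated library. These stand for about 1 fragment with probucol and 442 without. How reads that match both copies were divided is not known, so no counting interval is given for Amd1 alone. Amd2 had 68.3 FPKM in the probucol library, against 46.8 FPKM in the untreated library, from about 1377 fragments with probucol and 1054 without. The near-identical copies therefore lay apart in opposite directions, with log2 ratios of -5.15 for Amd1 and 0.54 for Amd2. Only 15 of the 12882 genes had a lower log2 ratio than Amd1.

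Their sum was 68.4 FPKM with probucol and 66.6 FPKM in untreated tissue, a log2 ratio of 0.04. At the shorter of the pair of transcript lengths this is about 1372 fragments with probucol and 1491 without, and the ratio of the sums was 1.03, with an interval of 0.954 to 1.11. Amd1 took 0.104% of the sum with probucol and 29.6% without. The division of the sum between the copies differed between the libraries, and the sum itself did not pass 1.5-fold. Of the 3155 stretches of 50 bases in the Amd1 transcript, 86.1% occur letter for letter in Amd2, and of the stretches of 100 bases 73.2%. The sources used here do not say how reads that match both genes were assigned, and which gene was transcribed cannot be told from these values.

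**Figure D2:**
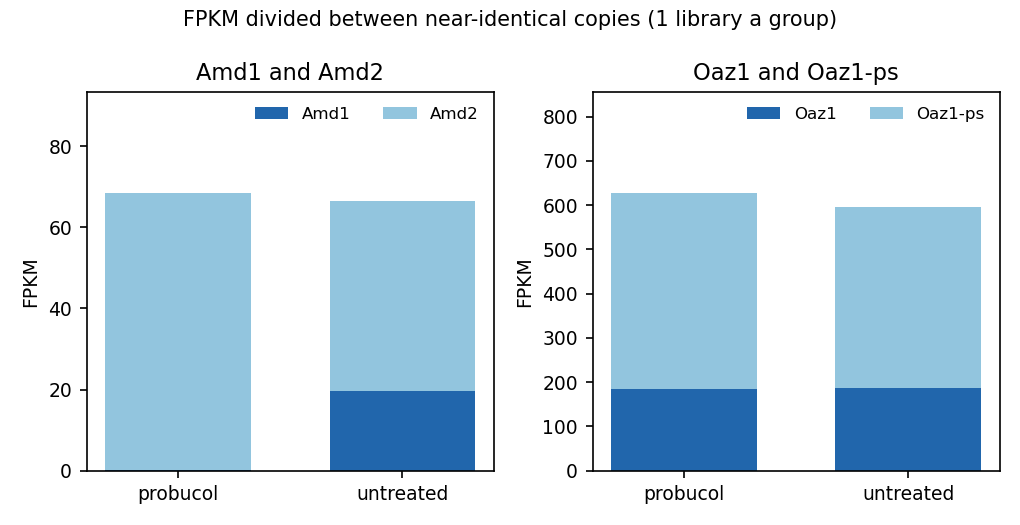
FPKM of near-identical copies stacked to their sum, with the probucol library on the left and the untreated library on the right of each panel (1 library a group, no error bars). Amd1 makes up 0.104% of its sum with probucol and 29.6% without, while the share of Oaz1 is 29.4% with probucol and 31.5% without.

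With Amd1 and Amd2 summed, the pathway has 9 rows, and the levels of most were close between the libraries. Of the 9 rows, 1 lay past 1.5-fold lower with probucol, where 12.0% of all genes were, and 0 lay past 1.5-fold higher, where 5.52% did. As deposited, none was 2-fold lower, where 5.14% of all genes were. The median log2 ratio of the 9 rows was -0.03, and that of all 12882 genes 0.01. The row past the limit was Sat1, at -0.96, and the other 8 lay between -0.37 and 0.31. With each library scaled to the same sum, Sat1 was past 2-fold lower, at -1.11. It was so too, at -1.05, when the 10 most abundant genes were left out of the sum.

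Ornithine decarboxylase, the enzyme that commits ornithine to the pathway, is encoded by Odc1 (chromosome 12, 17544808 to 17551502). Odc1 had 38.8 FPKM with probucol and 39.6 FPKM in untreated tissue, a log2 ratio of -0.03. About 520 fragments with probucol and 592 without give a ratio of 0.980, with an interval of 0.870 to 1.11. Odc1 shares stretches with other genes too: 42.2% of its stretches of 50 bases occur in transcripts of 16 other genes, of which 2 have rows. Whether these are retrocopies of Odc1 was not examined. The higher of those, Gm15645, had 4.24 FPKM with probucol and 6.10 FPKM without, far below Odc1 itself.

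Spermidine synthase, which makes spermidine from putrescine, is encoded by Srm (chromosome 4, 148591513 to 148594619). Srm was at 12.3 FPKM with probucol and 13.5 FPKM in untreated tissue. It rested on about 93 fragments with probucol and 115 without, and its ratio of 0.908 had an interval of 0.679 to 1.20, so a difference in either direction of about that size was not detectable at this depth. Spermine synthase, which turns spermidine into spermine, is encoded by Sms (chromosome X, 157443851 to 157492287). Sms was at 31.0 FPKM with probucol and 24.8 FPKM in untreated tissue, the highest log2 ratio of the 9 rows at 0.31. About 728 fragments with probucol and 650 without give a ratio of 1.25, with an interval of 1.12 to 1.39 that stays under 1.5-fold. For Sms, 28.7% of stretches of 50 bases also occur in another annotated gene, Sms-ps. Within a library, Sms stood at 2.52 times the FPKM of Srm with probucol and at 1.84 times without.

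Sat1 (chromosome X, 155213126 to 155216449) encodes spermidine/spermine acetyltransferase, the enzyme that marks polyamines for breakdown or export and that rises when polyamines are plentiful. Sat1 was at 44.8 FPKM in the probucol library, against 87.7 FPKM in the untreated library, 1.95-fold lower. About 288 fragments with probucol and 629 without give a ratio of 0.511, with an interval of 0.443 to 0.589. The log2 ratio of Sat1 had 717 of the 12882 genes below it, and it was the lowest of the 9 rows. Against Odc1 in the same library, Sat1 stood at 1.16 times with probucol and at 2.22 times without. In tissue, fewer cells of a type and less RNA per cell cannot be told apart.

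Marker genes moved beside Sat1. The 10 macrophage markers all lay past 1.5-fold lower with probucol. Their median log2 ratio was -1.51, and their levels summed to 941 FPKM with probucol against 3131 FPKM without. All 6 proliferation genes lay past 1.5-fold lower too, at 8.84 FPKM with probucol against 33.8 FPKM without in sum. Of the 8 fibroblast markers 6 lay past 1.5-fold lower, and all 8 together summed to 891 FPKM with probucol against 1533 FPKM without. The 8 heart muscle markers lay above 0, with a median of 0.44 and sums of 69875 FPKM with probucol against 50590 FPKM without. None of these marker genes was listed at 0 in either library, and their part in the value of Sat1 was not tested. Of 6 endothelial markers, and of 5 markers of smooth muscle and pericytes, 0 passed 1.5-fold in either direction. Of 6 markers of red cells and platelets, 5 were higher and 1 lower past 1.5-fold. Of 6 skeletal muscle and 6 lymphocyte markers, 2 each passed the filter, with 1 skeletal muscle gene higher and 1 lymphocyte gene lower past 1.5-fold. Few fragments lie behind these, and their counting intervals include no difference.

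Spermine oxidase, which returns spermine to spermidine and releases hydrogen peroxide, is encoded by Smox (chromosome 2, 131491858 to 131525183). Smox had 11.0 FPKM with probucol and 14.3 FPKM in untreated tissue, a log2 ratio of -0.37. Its 9 matched transcripts differ in length, so the fragments behind it lie between about 58 and 154 with probucol and between 84 and 224 without. By the smaller numbers the ratio of 0.768 had an interval of 0.542 to 1.09, which includes no difference. Smox had no stretch of 50 bases in common with another annotated gene, unlike the other 9 genes.

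The antizymes were the most abundant transcripts of the pathway. Their messenger RNA is read through a programmed ribosomal frameshift that polyamines promote, and the annotation of Oaz1 and of Oaz2 leaves out 1 base inside the coding sequence (chromosome 10, 80828295 and chromosome 9, 65686272). Oaz1 (chromosome 10, 80826656 to 80829290) was at 184 FPKM with probucol and 188 FPKM in untreated tissue, a ratio of 0.982 with an interval of 0.903 to 1.07. Its retrocopy Oaz1-ps (chromosome 17, 17345242 to 17346204), which has 1 exon, was listed at 443 FPKM with probucol and 409 FPKM without, above its parent in both libraries. Over the 684 bases that align, Oaz1-ps and Oaz1 differ by 1 substitution and by 1 base that the annotated Oaz1 transcript lacks. Of the stretches of 50 bases of Oaz1, 53.9% occur in Oaz1-ps, so the level of Oaz1 alone is uncertain. The comparison used an Oaz1-ps transcript of 685 bases, shorter than the 963 bases of the coordinates above. The shared part may therefore be larger. Summed, the pair had 627 FPKM with probucol and 596 FPKM without, a log2 ratio of 0.07. Unlike Amd1, Oaz1 kept a similar share of its sum, 29.4% with probucol and 31.5% without.

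Oaz2 (chromosome 9, 65676548 to 65690300), a second antizyme, was at 133 FPKM with probucol and 109 FPKM in untreated tissue. About 1462 fragments with probucol and 1333 without give a ratio of 1.22, with an interval of 1.14 to 1.32. The coding sequences of Oaz1 and Oaz2 are 66.0% identical over 567 aligned bases, so their reads are not exchangeable as those of Amd1 and Amd2 are. Oaz2 stood at 3.44 times the FPKM of Odc1 with probucol and at 2.75 times without.

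Azin1 (chromosome 15, 38487430 to 38519294) encodes antizyme inhibitor, a relative of ornithine decarboxylase that has no enzyme activity and frees the enzyme by binding antizyme. Azin1 had 23.8 FPKM with probucol and 28.3 FPKM in untreated tissue, a log2 ratio of -0.24. The ratio of 0.841 had an interval of 0.757 to 0.935. The coding sequences of Odc1 and Azin1 are 61.6% identical over 1335 aligned bases. Azin1 stood at 0.614 times the FPKM of Odc1 with probucol and at 0.716 times without, and antizymes exceeded it in both libraries.

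**Figure D3:**
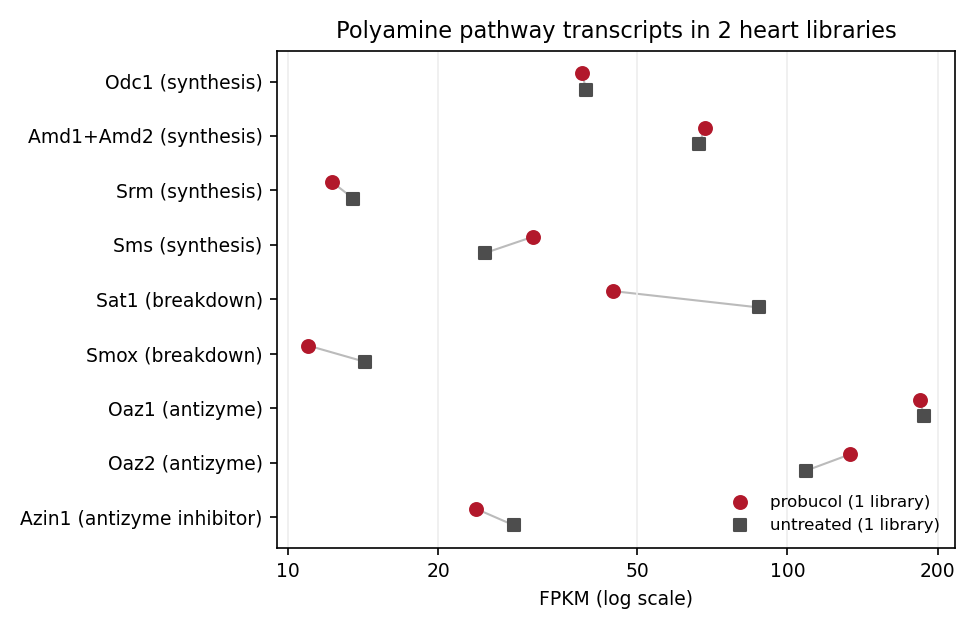
FPKM of the 9 rows on a log axis, with the probucol library as red circles and the untreated library as grey squares (1 library a group, no error bars). Sat1 shows the widest gap, at 44.8 FPKM with probucol against 87.7 FPKM without, while Odc1, Oaz1 and the sum of Amd1 and Amd2 nearly coincide.

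The order of levels was similar in both libraries. Oaz1 was highest and Oaz2 next in each, and Srm and Smox were the lowest. Sat1 stood below the sum of Amd1 and Amd2 with probucol and above it in untreated tissue. Sms and Azin1 also changed places, with Sms above Azin1 in the probucol library. Srm and Smox, neighbours at the bottom, differed by 1.12 times with probucol and by 1.06 times without, with Srm above Smox in the probucol library and below it in the untreated one. With 1 library a group, the spread needed to call these orders different was not measured.

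**Figure D4:**
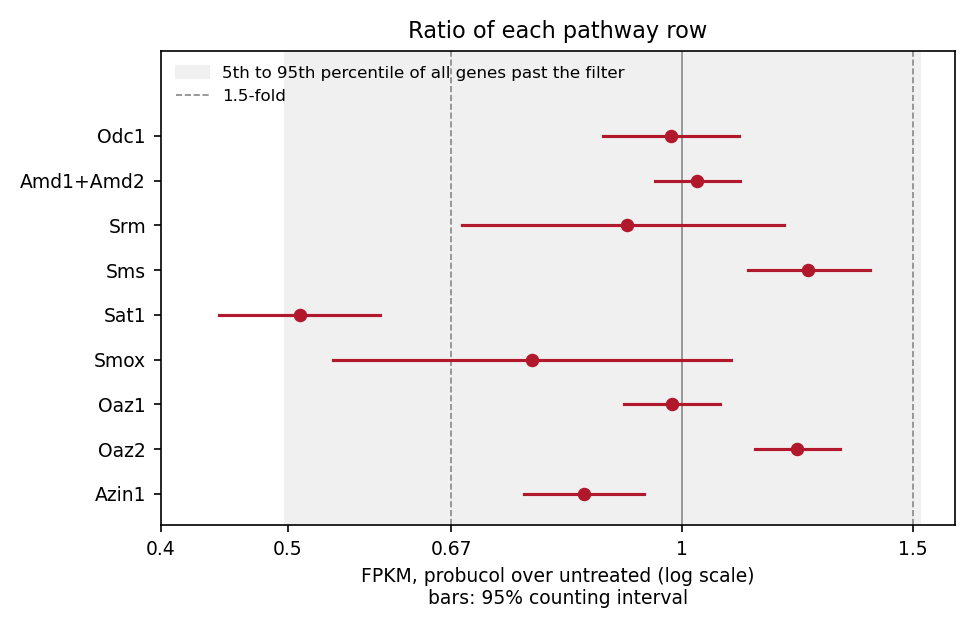
FPKM ratio of each row, probucol over untreated, on a log axis, with bars for the 95% counting interval, dashed lines at 1.5-fold and grey for the 5th to 95th percentile of the log2 ratios of all 12882 genes (-1.01 to 0.60). Only the Sat1 interval lies wholly past the dashed line, and Sms, Oaz2 and Azin1 have intervals that leave out 1.

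Around the pathway, 44 further genes were read in lists, and 34 of them passed the filter. Of these 34, 5 (14.7%) were past 1.5-fold lower with probucol and 2 (5.88%) past 1.5-fold higher, close to the shares of all genes. Of the further breakdown enzymes Sat2 and Paox, the polyamine oxidase of peroxisomes, 0 passed the limit as deposited and 1 passed it as lower under both rescalings of the libraries. Paox had 3.61 FPKM with probucol and 5.43 FPKM without, a ratio of 0.666 with an interval of 0.368 to 1.21. Sat2 had 2.66 FPKM with probucol and 3.58 FPKM without, a ratio of 0.744 with an interval of 0.322 to 1.76. Both intervals, taken at the shortest matched transcript, include no difference. For Paox the fragments lie between about 20 and 108 with probucol and between 33 and 180 without. Its interval would be narrower at the longer transcript. Of further regulators, Azin2 had 0.478 FPKM with probucol and 0.571 FPKM without. Oaz3, the antizyme of the testis, was listed at 0 with probucol and had 0.181 FPKM without, which rests on about 1 fragment.

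In the list of ornithine and arginine supply, 3 of 8 measured genes lay past 1.5-fold lower and 0 higher, with a median log2 ratio of -0.28. Among all genes, 12.0% lay past 1.5-fold lower and 5.52% higher. Arg1, the arginase that makes ornithine and that activated macrophages carry, had 0.235 FPKM with probucol and 2.95 FPKM in untreated tissue. About 2 fragments with probucol and 28 without give a ratio of 0.0797, with an interval of 0.00920 to 0.316. Gatm, which uses arginine for creatine, had 1.95 FPKM with probucol and 4.98 FPKM without, and Aldh18a1, which makes a precursor of ornithine and proline, had 2.03 FPKM with probucol and 3.60 FPKM without. The Gatm ratio of 0.390 had an interval of 0.242 to 0.600, and the Aldh18a1 ratio of 0.564 one of 0.384 to 0.820. The most abundant genes of the list were level by comparison: Oat, ornithine aminotransferase, had 172 FPKM with probucol and 156 FPKM without, and the arginine carrier Slc7a1 had 11.6 FPKM with probucol and 10.5 FPKM without. The macrophage markers above were lower in the same library as Arg1, and their part in its value was not tested.

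AdoMet supply and methionine salvage provide and recycle the substrate of the Amd enzymes. Of 8 measured genes of this list, 1 lay past 1.5-fold higher, where 5.52% of all genes did, and 0 lower. Enoph1, a salvage enzyme, had 6.92 FPKM with probucol and 4.21 FPKM in untreated tissue, with a ratio of 1.64 and an interval of 1.07 to 2.55. With both libraries scaled to the same sum, 0 genes of this list passed 1.5-fold. Mat2b, the regulatory subunit of AdoMet synthetase, had 68.2 FPKM with probucol and 56.2 FPKM without, and Apip, of the salvage pathway, had 71.1 FPKM with probucol and 64.5 FPKM without. The median of the list was 0.13.

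Spermidine is also the source of hypusine, a modified residue of the translation factor eIF5A. Eif5a had 360.3 FPKM with probucol and 367 FPKM in untreated tissue, and Dohh, the hydroxylase that completes hypusine, had 35.8 FPKM with probucol and 35.5 FPKM without. Of the 4 genes of this list, 0 passed 1.5-fold, with a median of -0.01. Of the transport genes, Atp13a3, a polyamine pump, had 12.5 FPKM with probucol and 15.1 FPKM without, and Slc3a2 had 21.6 FPKM with probucol and 27.8 FPKM without.

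Myc and Mycn, transcription factors that are known to activate Odc1, were both past 1.5-fold lower with probucol. They were 2 of 5 measured genes of their list, where 12.0% of all genes lay past that limit. Myc had 2.05 FPKM with probucol and 4.83 FPKM in untreated tissue, with a ratio of 0.424 and an interval of 0.247 to 0.703. Mycn had 0.626 FPKM with probucol and 1.96 FPKM without, from about 10 fragments with probucol and 36 without, with an interval of 0.137 to 0.638. Their partner Max had 20.7 FPKM with probucol and 24.1 FPKM without, and the repressor Mnt had 3.75 FPKM with probucol and 3.33 FPKM without. Odc1 itself stood at 38.8 FPKM with probucol and 39.6 FPKM without beside them. The full windows of 300 bases were found for 8 of the 10 polyamine genes, with 2 windows for Sms. The letters CACGTG, the E-box that MYC binds, occurred in 1 of these, an Sms window, where 7.15% of all 32851 such windows hold them on either strand. The match describes the letters, and no match says only that these windows lack them.

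**Figure D5:**
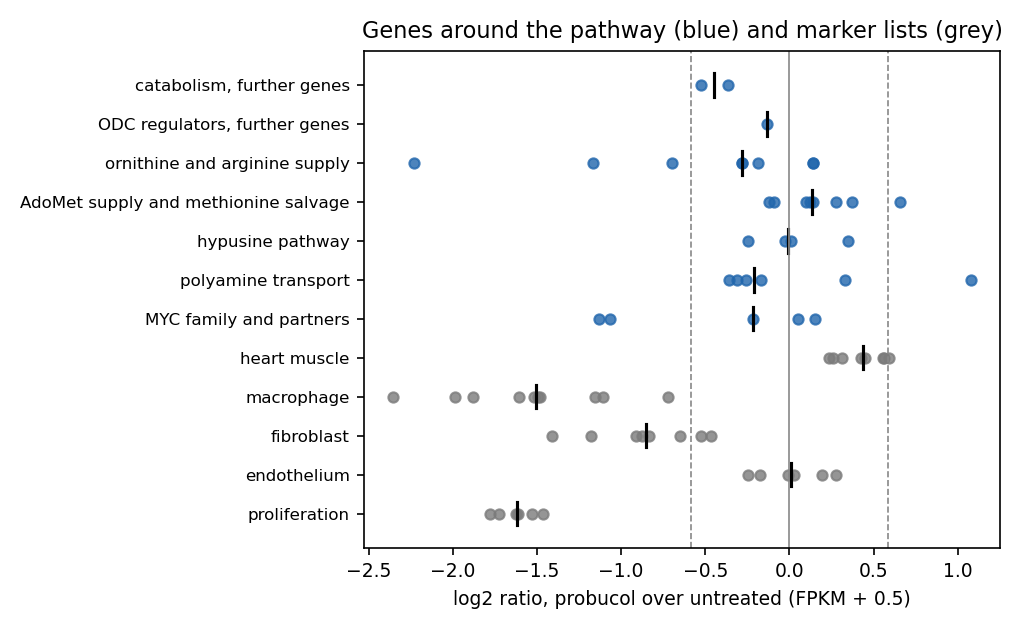
Log2 ratio, probucol over untreated, of each gene past the filter in the lists around the pathway (blue) and in 5 marker lists (grey), with the median of each list as a black bar and dashed lines at 1.5-fold. Macrophage and proliferation markers lie wholly left of the lower dashed line, while the pathway lists lie mostly between the dashed lines.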

How the data were processed

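RNA sequencing was measured in 2 mouse heart libraries, grouped by the treatment label (1 probucol, 1 untreated). Per the labels' protocols, the RNA came from a miRNeasy kit and the libraries from a stranded TruSeq mRNA kit. The authors deposited FPKM, 1 value per gene symbol. Build mm10 and the tools Bowtie2, TopHat2 2.1.1 and Cuffdiff 2.2.1 are named in the submitters' processing notes. The sources used here do not give their roles, the annotation, the scaling between libraries or the treatment of reads that match several genes. FPKM is relative to the rest of a library, so abundant transcripts that take more reads lower all other values.

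Amd1 and Amd2 were summed before the log. Differences are log2 of FPKM + 0.5, for genes with a mean of at least 0.5 FPKM, with no test. Fragments were estimated from 2992 genes with 1 transcript, subtracting 200 bases from each length. Of low values that should be up to 6 fragments, 67.7% (probucol) and 69.2% (untreated) were whole within 0.04 fragments. Lengths, exons and alignments came from GENCODE M21 (GRCm38, the assembly of mm10), and coordinates and promoters from RefSeq GRCm38.p6. The fragment and fold steps were tested on simulated data. Python 3.11.15, pandas 2.3.3, SciPy 1.17.1 and Biopython 1.88 were used.

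The members and lists were chosen with earlier results of these data known. Named were all members, every list gene past 1.5-fold, the 2 most abundant genes of each list around the pathway, and retrocopies with a row; 1 list gene past 1.5-fold is not reported here. Marker genes and genes that share stretches with a member were chosen after their values were seen.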

Additional observations from a re-analysis of the deposited data

How the results depend on the processing

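Another pseudocount (0.1 or 1) or centring on the median of all genes left all 9 rows on their side of 1.5-fold, with Sat1 between -1.11 and -0.95 over these and both rescalings. Scaling each library to the same sum moved the median log2 ratio of all genes to -0.13, from 0.01 as deposited, because the deposited sums differ. Under that scaling the sum of Amd1 and Amd2 had -0.11, Oaz1 -0.17 and Oaz2 0.15, and all genes at least 1.5-fold higher numbered 426, against 711 as deposited. Relative to the shifted median, these rows stayed near where they were. The list of AdoMet supply had 0 genes past 1.5-fold higher when scaled to the same sum, in place of 1, and under both rescalings 1 of Sat2 and Paox passed as lower. With a pseudocount of 0.1, genes at least 2-fold higher numbered 229, against 138, since low genes then pass more often. With Amd1 and Amd2 read as separate rows, 2 members, Amd1 and Sat1, were at least 1.5-fold lower, in place of 1. Summing Oaz1 with Oaz1-ps, an alternative added after seeing the data, gave 0.07. Counting intervals were taken from the values as deposited and at the shortest matched transcript, and were not recomputed for the rescaled libraries. So taken, the intervals of Odc1, Srm, Smox, Oaz1 and the sum of Amd1 and Amd2 include no difference, as do those of Sat2, Paox and Azin2. At their longest transcripts, Smox and Paox rest on more fragments and would have narrower intervals. Taken at the shortest transcript, at most about 20 fragments in the probucol library lie behind Arg1, Mycn, Sat2, Paox and Azin2. No paired analysis was possible because each group has 1 library and no test was run.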
